A study of Mus musculus with 112 samples.

Results

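The hearts described here were those of 8 male 129S1/SvImJ mice on a control diet, 8 of the 112 arrays of the series. They were chosen by strain and diet alone and were set against the control hearts of the other 5 inbred strains, which were BALB/cJ and C57BL/6J (Balbc/J and C57BL6/J in the labels), C3H/HeJ, CBA/J and DBA/2J, with 8 mice each. All mice were bought from 1 supplier and housed singly, received 84 kcal per week of a purified diet until 8 weeks of age, and then ate the control diet for 14 weeks. Hearts were taken at 22 weeks of age after an overnight fast, and BALB/cJ controls had been given more food than the controls of the other strains. For a second measurement of the strain difference, hearts of 129S1/SvImJ and of the same 5 strains on a calorie restricted (CR) diet were used, again 8 mice each but without 1 DBA/2J CR array that the study left out. The CR ration was not the same in all strains, since that of BALB/cJ equalled the control ration of the other strains and the one given to C57BL/6J and 129S1/SvImJ was cut a second time part of the way through. Hearts of the hybrid B6C3F1/J were not used.

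129S1/SvImJ is an inbred strain of the family from which the first mouse embryonic stem cells and many knockout lines were derived. Genes that lie beside a targeted gene in such lines often still carry the sequence of that family, so it matters where this strain differs from the strains it is crossed with. All mice of an inbred strain share 1 genotype, and errors given here are therefore between mice and not between strains. Values are log2 signals of an expression array, on which a difference of 1 is a doubling. The probes of the array were designed on a reference genome, so a sequence difference under a probe can change the signal without a change in RNA. Its part in any difference below was not tested beyond the comparison of probe sets given further on.

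The 129S1/SvImJ hearts were the most uniform of the 6 groups. Set against the average of its group mates, the least similar array had a correlation of 0.995 in 129S1/SvImJ, against 0.894 to 0.985 in the other strains, where 1 array each of BALB/cJ, C3H/HeJ, CBA/J and DBA/2J stood apart. The median SD of a gene between mice was 0.153 in 129S1/SvImJ and 0.165 to 0.286 in the others. Markers of cardiomyocytes were high, with a mean log2 signal of 12.29 ± 0.0275 (SD, n = 8) over 12 markers. Markers of atrial cardiomyocytes were low in every 129S1/SvImJ heart, with a mean over 9 markers between 6.23 and 6.41, while in the other 40 hearts it ran from 6.09 to 10.19 and was at or below 6.41 in 12. The atrial light chains Myl7 (log2 5.10 against 8.01) and Myl4 (7.36 against 9.93) showed this most clearly. By the test given below 3 of the 9 markers were lower than the mean of the other strains, beside 7.94% of all genes. This count was 0 without C57BL/6J, 0 in CR hearts and 1 or 2 with a 129S1/SvImJ replicate left out. Markers of white adipocytes ran from 5.27 to 5.94 in 129S1/SvImJ and from 4.98 to 9.61 in the other strains. Where these marker means came from was not tested. List counts with marker means as covariates are given below for the lists described at most length.

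**Figure D1:**
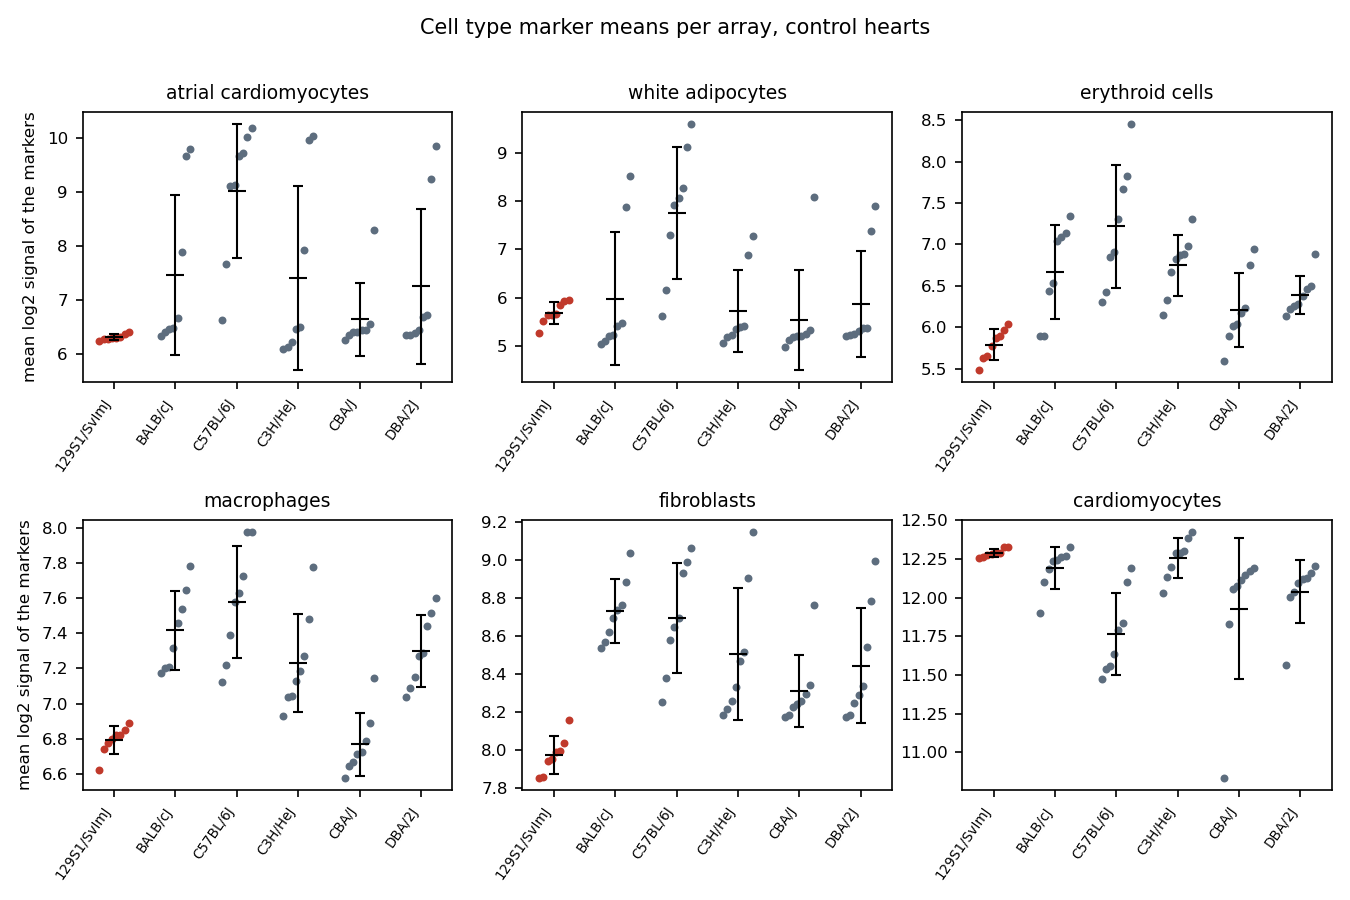
Mean log2 signal over the markers of 6 cell types (vertical axes) in each control heart, by strain (horizontal axes), with 129S1/SvImJ in red. Points are arrays, in order of value within a strain, and black bars show the mean and SD of 8 mice. The 129S1/SvImJ points lie close together for atrial markers (6.23 to 6.41), and for fibroblasts they lie below all 40 points of the other strains.

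In total 3221 of 19938 genes differed between 129S1/SvImJ and the mean of the 5 other strains (16.2%; limma, adjusted p under 0.05), 1638 of them higher (8.22%) and 1583 lower (7.94%) in 129S1/SvImJ. Large differences were more often lower than higher. A difference of at least 1 on the log2 scale was found for 31 higher and 79 lower genes, and one of at least 2 for 4 higher and 13 lower genes. The mean of 129S1/SvImJ lay outside the range of the 5 other strain means for 2706 of the called genes (84.0%) and for 6439 of all genes (32.3%). Since a difference from a mean can rest on 1 or 2 strains, a stricter call was also made, for which the gene had to differ from each of the 5 strains with 1 sign. This left 282 genes (1.41%), 134 higher (0.672%) and 148 lower (0.742%), called apart below. For 55 of them, 26 higher and 29 lower, all 8 arrays lay outside the values of all other 40. Over all genes, 61 were free of overlap in this way (0.306%), 29 of them above (0.145%) and 32 below (0.16%). Of the 282 genes apart, 15 higher and 36 lower differed by at least 1, and 3 higher and 5 lower by at least 2. The atrial light chains Myl7 and Myl4, both among the 13 falls of at least 2, were not apart from each strain.

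The same contrast was run for each strain in turn. It called 7403 genes for C57BL/6J, 3971 for CBA/J, 2310 for BALB/cJ, 1385 for DBA/2J and 856 for C3H/HeJ. C57BL/6J had 1910 genes apart from each of the others, more than the 282 of 129S1/SvImJ, but of these 42 were free of overlap against 55 in 129S1/SvImJ. In CBA/J, DBA/2J, BALB/cJ and C3H/HeJ 17, 19, 14 and 14 genes were. In direct pairs 129S1/SvImJ differed from C57BL/6J at 6798 genes (34.1%), from CBA/J at 3103 (15.6%), from BALB/cJ at 2281 (11.4%), from DBA/2J at 2152 (10.8%) and from C3H/HeJ at 1547 (7.76%). These counts share arrays and follow the spread within each strain, so no test was made of how they differ. Atrial marker means ran from 6.62 to 10.19 in C57BL/6J control hearts, against 6.23 to 6.41 in 129S1/SvImJ. In C57BL/6J replicate 4 the ventricular marker mean was 6.21, against 9.67 to 9.92 in 129S1/SvImJ. How much of the C57BL/6J counts goes with these marker means was not tested.

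The largest difference of all was that of Gdpd3 (probe set 10557470), a lysophospholipase D that makes lysophosphatidic acid. Its log2 signal in 129S1/SvImJ had a lowest value of 9.13, a median of 9.43 and a highest of 9.49, and in the other 40 hearts it ran from 3.89 to 4.98 with a median of 4.50. No value of another strain came near those of 129S1/SvImJ. The difference was 4.85 ± 0.0657 (SE, 8 against 40 hearts), or 28.9-fold (limma, adjusted p = 1.79e-46). The 5 other strain means lay between 4.19 and 4.70, below 5.21, the mean signal under which 40% of genes fall. The files used here give no detection call, so the fold is a ratio of signals and not of RNA. In CR hearts the difference was 4.59, with 8.69 to 9.45 in 129S1/SvImJ and 3.96 to 5.07 in the others.

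Further genes of lipid metabolism stood among those higher without overlap, while Ptgis and Pla2g5, given below, stood among those lower. Whether lipid genes were more frequent there than elsewhere was not tested. Elovl7, an elongase of long-chain fatty acids, had a lowest value of 6.42, a median of 6.60 and a highest of 6.96, and 4.02, 4.68 and 5.31 in the other strains. This was a difference of 1.94 ± 0.115, or 3.85-fold (adjusted p = 1.99e-18). Lclat1 acylates lysocardiolipin, a precursor of the cardiolipin of mitochondrial membranes, and its values were 10.46, 10.79 and 10.87 in 129S1/SvImJ against 8.35, 9.59 and 10.30. The difference was 1.26 ± 0.149 (adjusted p = 1.22e-08). CBA/J, with a mean of 9.85, was the nearest strain. The oxysterol-binding protein gene Osbpl3 was higher by 1.03, and Phyhd1, a relative of the phytanoyl-CoA hydroxylase, by 0.83. Coq2, which attaches the side chain of coenzyme Q, was higher by 0.82, with 8.61 to 8.91 in 129S1/SvImJ and 7.23 to 8.55 in the others.

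Serpina3n, a secreted protease inhibitor of the acute phase response, ran from 9.54 to 9.76 (median 9.66) in 129S1/SvImJ and from 7.12 to 9.48 (median 8.24) in the other strains. The difference was 1.44 ± 0.131 (adjusted p = 5.95e-12). In CR hearts it was 1.29, but there the groups overlapped, with 8.96 to 9.55 in 129S1/SvImJ and up to 10.50 in the others. Serpina3n has close relatives beside it in the genome, and its signal may include theirs. Sh3rf2, a ring finger protein with SH3 domains, was higher by 1.64 ± 0.184 (8.64, 8.96 and 9.15 against 5.73, 7.46 and 8.24). Its values in the other strains were widely spread, and none reached those of 129S1/SvImJ. Agtr1a, the main receptor for angiotensin II, had values of 9.37, 9.42 and 9.54 against 7.17, 8.57 and 9.06, a difference of 0.96 ± 0.149 (adjusted p = 4.10e-06). Its SD was 0.0530 in 129S1/SvImJ and 0.314 to 0.609 in the other strains. Arhgap20 (0.98), Rftn1 (0.80), the activity-regulated gene Arc (0.73) and the unnamed transcript BC018473 (1.72) were also higher without overlap.

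Olfr39, an odorant receptor gene, was the second in order of size among these genes, with 6.41, 6.86 and 7.50 in 129S1/SvImJ against 3.43, 4.17 and 5.84, a difference of 2.58 ± 0.144 (adjusted p = 2.56e-19). Within the other strains DBA/2J was highest, with a mean of 5.21. Its neighbours Olfr872 (3.74) and Olfr873 (0.77) were higher too. Odorant receptor genes come in clusters of close relatives, so signals may be shared between these 3 genes, and which of them was expressed cannot be told from these values.

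**Figure D2:**
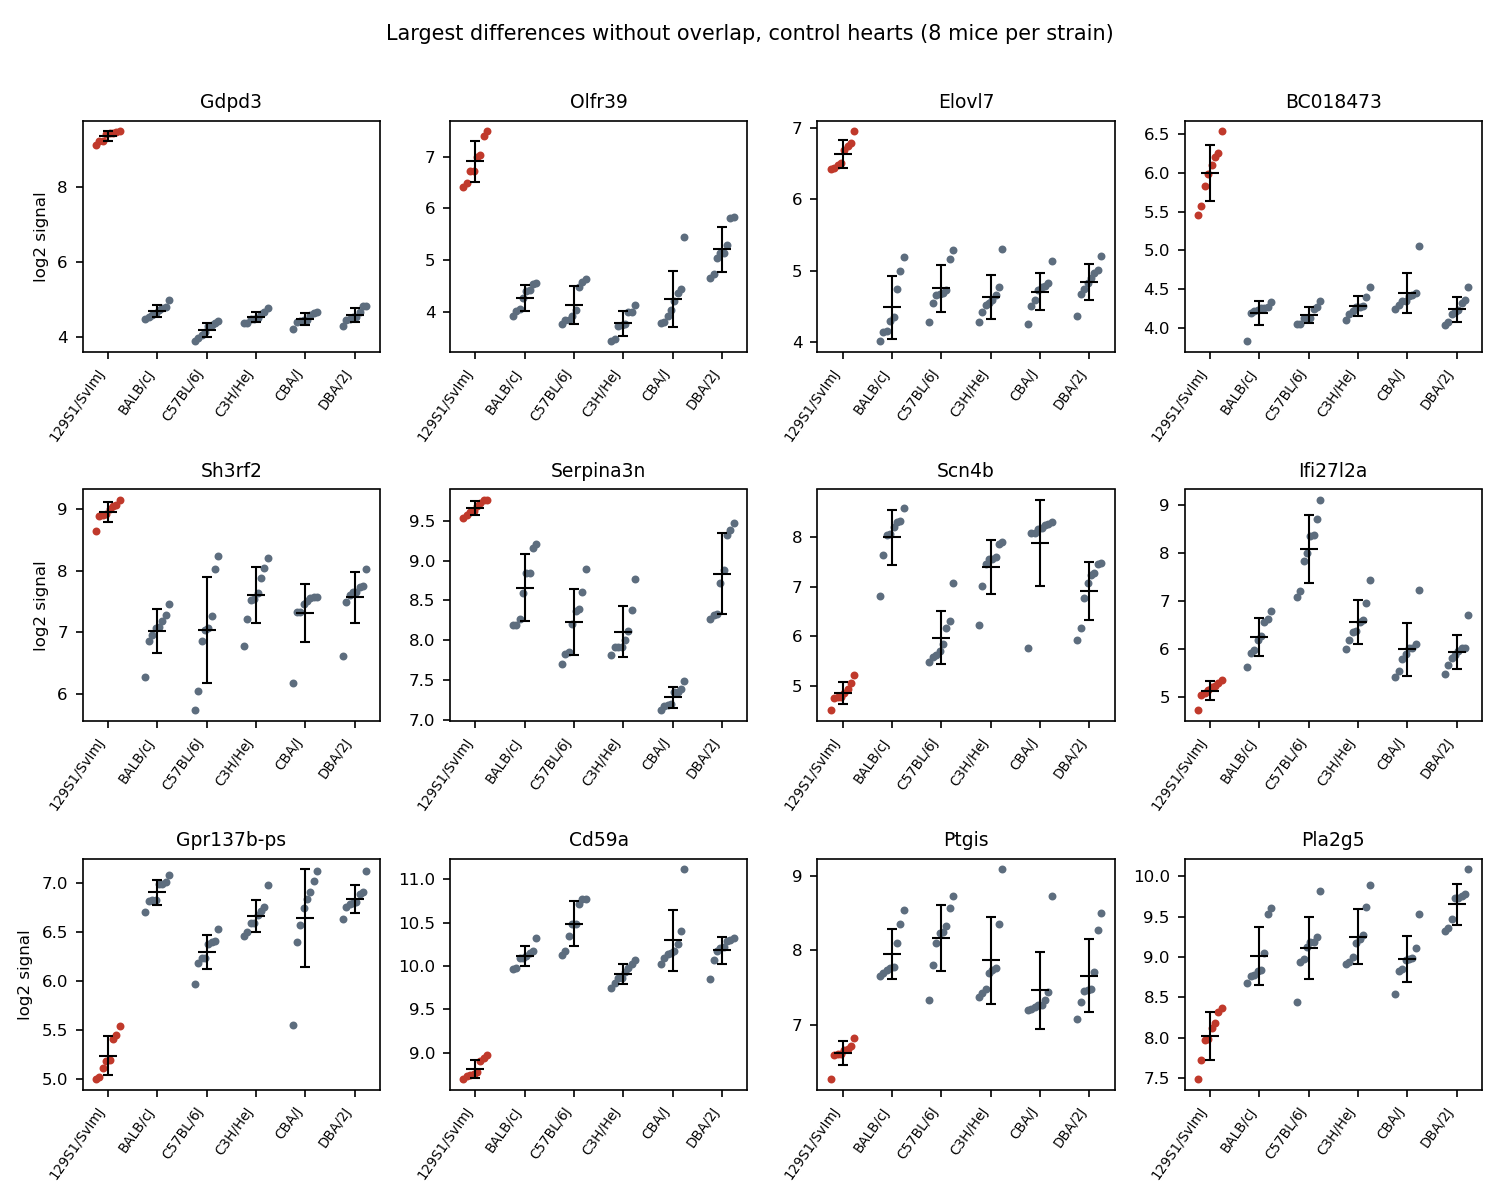
Log2 signal (vertical axes) of the 6 genes with the largest rise and the 6 with the largest fall among those apart from each strain and free of overlap, in each control heart by strain (horizontal axes), with 129S1/SvImJ in red. Points are mice in order of value and black bars show the mean and SD of 8. Gdpd3 lies between 9.13 and 9.49 in 129S1/SvImJ and at or below 4.98 elsewhere, and Scn4b lies between 4.51 and 5.22 in 129S1/SvImJ and at or above 5.47 elsewhere.

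The largest fall without overlap was that of Scn4b, a beta subunit of the voltage-gated sodium channel that shapes the inward current of heart and nerve. Its values in 129S1/SvImJ were 4.51, 4.82 and 5.22 (lowest, median and highest), and 5.47, 7.47 and 8.59 in the other strains. The difference was -2.38 ± 0.213, or 5.20-fold lower (adjusted p = 4.56e-12). C57BL/6J was the nearest, with a mean of 5.97 against 6.92 to 8.00 in the others, and still differed from 129S1/SvImJ (adjusted p = 0.00124). In CR hearts the difference was -2.13, where the highest value of 129S1/SvImJ (5.06) just passed the lowest of the others (5.01).

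Regulators of complement and a gene induced by interferon were among the other falls. Cd59a, which keeps the complement attack complex from forming on the animal's own cells, ran from 8.70 to 8.97 (median 8.77) in 129S1/SvImJ and from 9.74 to 11.12 (median 10.15) in the other strains. The difference was -1.38 ± 0.0797, or 2.60-fold lower (adjusted p = 8.83e-19), and -1.27 in CR hearts. Its neighbour and close relative Cd59b was lower by 1.20 on the log2 scale, and the array may not separate their signals fully. Ifi27l2a, an interferon-induced gene, was lower by 1.43 ± 0.173 (4.73, 5.18 and 5.35 against 5.42, 6.23 and 9.11). C57BL/6J hearts had the highest values (7.10 to 9.11), and the lowest value in CBA/J, 5.42, lay just above the highest in 129S1/SvImJ.

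A pair of enzymes of eicosanoid synthesis also fell. Ptgis, the prostacyclin synthase, was lower by 1.19 ± 0.163 (6.28, 6.64 and 6.84 against 7.08, 7.73 and 9.09). Pla2g5, a secreted phospholipase A2, was lower by 1.18 ± 0.121 (7.48, 8.05 and 8.37 against 8.44, 9.15 and 10.09). In CR hearts the differences were -0.91 and -0.69, both called. Genes of the cell surface followed. The heparan sulfate proteoglycan Sdc2 was lower by 1.07, the glutamine transporter Slc1a5 by 1.03, the amino acid transporter Slc6a17 by 0.92 and the membrane skeleton protein Epb41l3 by 0.97 on the log2 scale. Pts, which makes a precursor of tetrahydrobiopterin, fell by 1.02 and Pyurf by 1.03, and the GTPase Rabl2 (-1.08) and the hydrolase Cmbl (-0.98) were lower to a like extent. Gpr137b-ps (-1.42) is annotated as a pseudogene, and its signal cannot be separated with certainty from that of Gpr137b, which was itself higher by 0.33.

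A further 5 genes, chosen after their values were seen, had large differences and were apart from each strain, but 1 or 2 arrays of other strains reached into or past the range of 129S1/SvImJ. AI506816 was lower by 3.96 on the log2 scale (1.96, 2.45 and 2.99 in 129S1/SvImJ against 2.77, 6.39 and 9.81), and among the other strains it was lowest in BALB/cJ (mean 3.56) and highest in DBA/2J (9.24). Olfr872, beside Olfr39, was higher by 3.74. The small nucleolar RNA gene Snord53 was lower by 2.73 and the platelet chemokine gene Ppbp by 2.68. Ogdhl, a relative of the oxoglutarate dehydrogenase of the citric acid cycle, was lower by 2.33 in control and by 2.92 in CR hearts.

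The strain differences were measured again in CR hearts, in other mice. There the contrast called 3164 genes (15.9%), 1598 higher (8.01%) and 1566 lower (7.85%), and 290 were apart from each strain (1.45%). In all, 1801 of the 3221 genes called in control hearts (55.9%) were called with the same sign, 8 with the other sign. Of the 282 genes apart in control hearts 251 (89.0%) were called in CR hearts with the same sign, none with the other, and 128 were apart there as well. Of the 55 genes free of overlap 52 were called with the same sign, and the difference had the same sign in 55. The exceptions in the call were Calr3 (0.67 in control and 0.18 in CR hearts), Zpr1 (0.53 and 0.11) and Pilra (-0.91 and -0.24), and for Calr3 the difference between diets itself was called (limma, adjusted p = 0.0206).

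**Figure D3:**
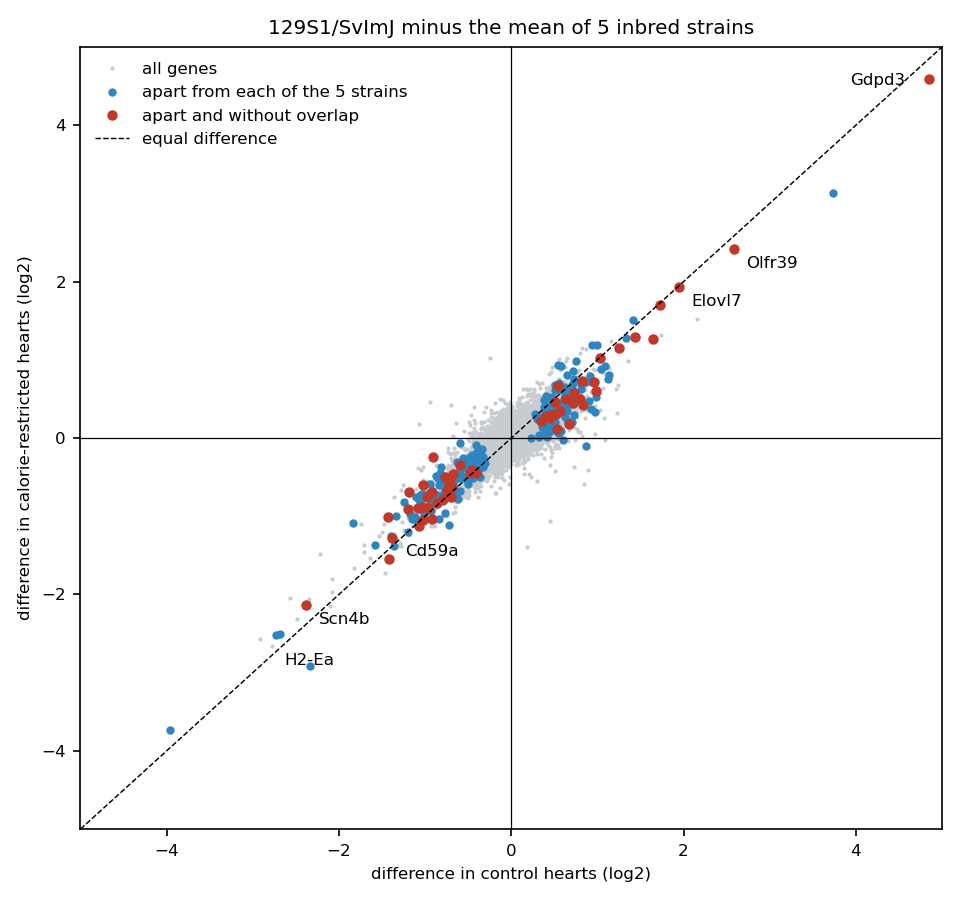
Difference between 129S1/SvImJ and the mean of the other 5 inbred strains (log2) in control hearts (horizontal axis) and in CR hearts (vertical axis). Grey points are all 19938 genes, blue points the 282 genes apart from each strain in control hearts and red points the 55 of them without overlap. The dashed line marks equal differences, near which Gdpd3 (4.85 and 4.59) and Scn4b (-2.38 and -2.13) lie, while some red points such as Pilra (-0.91 and -0.24) lie off it.

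The strain difference itself differed between the diets for 39 genes (0.196%; limma, adjusted p under 0.05), 9 with a higher and 30 with a lower value in CR. Among the 6 with the smallest p, 4 were genes of fuel use that fell. Pdk4, which turns the heart from glucose to fat, was 0.45 above the mean of the other strains in control hearts and 1.06 below it in CR hearts (difference of the differences -1.51 ± 0.245, adjusted p = 0.000129). Its values in 129S1/SvImJ were 12.21 to 12.57 in control and 9.63 to 12.12 in CR hearts, without overlap. The lipase inhibitor Angptl4 (-1.58), the mitochondrial carrier Ucp3 (-1.44) and the acyl-CoA thioesterase Acot1 (-1.30) were also lower in CR relative to the other strains, with control differences of 0.19, 0.85 and 0.89. The signal of Acot1 may include that of its close relative Acot2, whose own difference was 0.87 in control and -0.10 in CR hearts. In the other direction went Kcne1, a potassium channel subunit (-0.25 in control and 1.02 in CR hearts), and Wfdc1 (-0.47 and 0.30). The unequal CR rations cannot be told apart from strain in this test. With DBA/2J CR replicate 7 in the fit 13 genes were called, and 70 with the atrial marker mean as a covariate.

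Genes in which inbred strains are known to carry variants were looked at as a list of 10 measured genes. Of these, 1 was higher, 2 lower and 7 not called, beside 8.22% higher and 7.94% lower over all genes. H2-Ea encodes a chain of the class II molecule I-E, which is not made in mice of the b haplotype. Its values were 4.20 to 4.90 in 129S1/SvImJ and 4.22 to 4.91 in C57BL/6J (adjusted p = 0.964 for this pair), and the lowest value in the other 4 strains was 6.30. The difference from the mean of 5 strains was -2.77 ± 0.200. H2-Ab1, of the class II molecule I-A, was higher by 0.95, with a mean of 8.11 ± 0.184 in 129S1/SvImJ, 9.24 in C57BL/6J and 5.93 to 7.10 in the others. Since class II genes differ in sequence between haplotypes, the probes may not read all of them equally well. Casp4, the sensor of bacterial lipopolysaccharide once named caspase 11, is known to be defective in mice of this family. It was lower by 0.90 ± 0.123 on the log2 scale (4.32, 4.47 and 4.83 against 4.67, 5.25 and 6.97; adjusted p = 2.79e-07) and apart from each strain, with 2 arrays of other strains inside its range. Its neighbours Casp12 (-0.79) and Pdgfd (-0.56) were lower too. Nnt, a mitochondrial transhydrogenase of which C57BL/6J carries a deletion, was 0.76 above the mean of 5. By pair it differed from C57BL/6J (11.25 against 9.52, adjusted p = 4.20e-07) and from CBA/J (adjusted p = 0.0268). In CBA/J replicate 1, an array that stood apart, Nnt was at 8.37, against 10.25 to 10.96 in the other hearts of that strain. The pairs with BALB/cJ, C3H/HeJ and DBA/2J did not pass the test (adjusted p = 0.642, 0.321 and 0.137). Tlr4 (0.37, adjusted p = 0.0740), Disc1 (0.14), Tyr (-0.20), Gpnmb (-0.15), Pde6b (0.06), Hc (0.05) and Gabra2 (0.03) were not called.

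**Figure D4:**
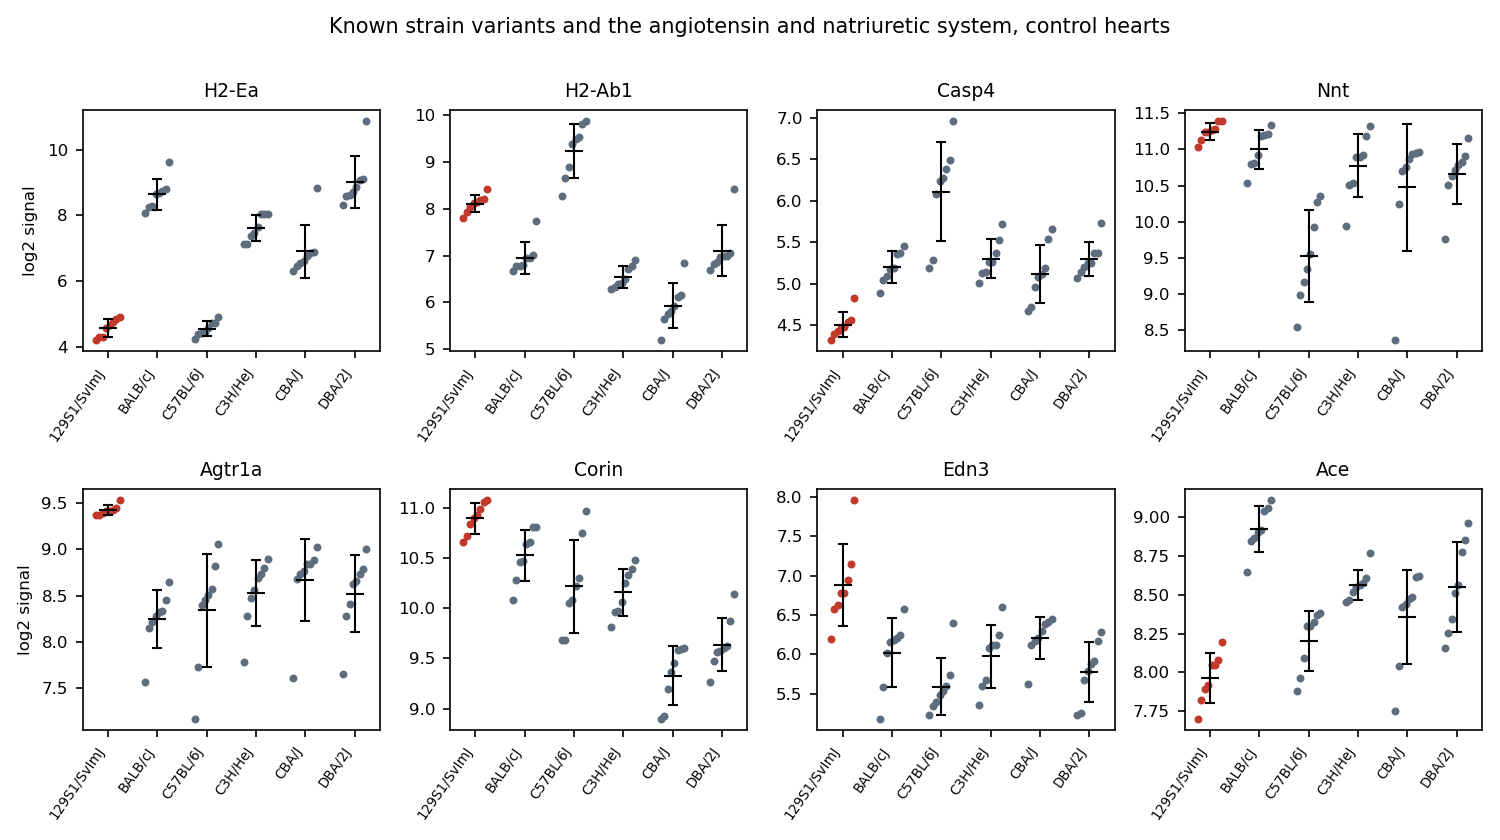
Log2 signal (vertical axes) in each control heart, by strain (horizontal axes), of 4 immune and mitochondrial genes in the upper row and of 4 genes of the angiotensin, natriuretic and endothelin system in the lower row, with 129S1/SvImJ in red. Points are mice in order of value and black bars show the mean and SD of 8. H2-Ea is at or below 4.91 in 129S1/SvImJ and C57BL/6J and at or above 6.30 in the other 4 strains, and Agtr1a of 129S1/SvImJ lies above all 40 others.

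The renin-angiotensin, natriuretic and endothelin genes, which set vascular tone and salt balance, differed in both directions. Of 14 measured, 3 were higher and 2 lower, beside 8.22% and 7.94% of all genes. Counts as small as those of this list and of the channel and calcium lists below were not tested against these shares. Of the higher genes, 2 were apart from each strain. These were Agtr1a, given above, and Edn3, an endothelin (6.88 against 5.91, a difference of 0.97 ± 0.149). For Edn3 12 arrays of other strains lay inside the range of 129S1/SvImJ, which ran from 6.20 to 7.97. Corin, the protease that activates the natriuretic peptides, was higher by 0.92 ± 0.110 (10.66, 10.91 and 11.09 against 8.90, 10.01 and 10.97; adjusted p = 1.34e-08). BALB/cJ was next with 10.53 and CBA/J was lowest with 9.33. Ace, which makes angiotensin II, was lower by 0.56 ± 0.0825, and Npr3, the clearance receptor for natriuretic peptides, by 1.08. Among 19 cardiac ion channels and connexins 5 were higher, including the potassium channels Kcna5 (0.60) and Kcna4 (0.57) and the connexin Gjc1 (0.26), and 1, Scn4b, was lower. Among 18 calcium handling genes the exchanger Slc8a1 (0.45, by its brighter probe set) and the channel subunit Cacna1c (0.64) were higher. Sri (-0.36), Fkbp1b (-0.31) and Casq2 (-0.27) were lower. With the atrial marker mean as a covariate 1 channel was higher, neither calcium handling gene was called higher any more, and Npr3 was at -0.40 and not called. With 4 marker means Npr3 was at -0.0036, and without C57BL/6J 2 channels were higher. The dimmer probe set of Slc8a1 was called lower (-0.60, limma, adjusted p = 0.000313, against 0.0148 for the brighter). The mean of its probe sets gave -0.07, so the direction of Slc8a1 cannot be told. Without 129S1/SvImJ replicate 1, 2, 4, 5, 6, 7 or 8, 1 calcium handling gene was higher.

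Interferon and complement genes were more often called lower than higher in 129S1/SvImJ hearts. Over all genes 7.94% were lower and 8.22% higher. Among 26 interferon response genes 16 were lower and 1 higher, with a median difference of -0.31 beside 0.000588 over all genes. Ifit1 was lower by 0.96 (5.33, 5.73 and 6.03 against 5.86, 6.53 and 7.82), the antiviral gene Rsad2 by 0.93, Ifit3 by 0.80, the nucleotidyltransferase relative Oasl2 by 0.63 and the RNA sensor Ifih1 by 0.40. The exception was the GTPase Iigp1, which was higher by 0.97, at 8.06 in 129S1/SvImJ, 7.90 in C57BL/6J and 6.49 to 7.24 in the other strains. None of these 17 called genes was apart from each strain. In CR hearts 11 members were lower and 1 higher, beside 7.85% and 8.01% of all genes. Without C57BL/6J 12 were lower.

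Complement genes had 13 lower and 1 higher of 21 (7.94% and 8.22% over all genes), with a median of -0.38. Among them Cd59a and Cd55 (-0.78), both shields of the animal's own cells, were apart from each strain. The chains of C1q, which starts the classical pathway and is made by macrophages, were lower together (C1qb -0.76, C1qa -0.58, C1qc -0.54) and lie side by side in the genome. C1s1 fell by 0.70, and Masp1, of the lectin pathway, was higher by 0.40. Among 27 inflammasome genes and innate sensors 8 were lower and 2 higher, the higher count being near the share over all genes. The lower ones included Casp4, Casp12, Naip5 (-0.59) and Naip2 (-0.49), of which the last pair are near copies of each other. Macrophage markers moved with these groups. Of 12 markers 9 were lower and 0 higher, among them Lyz2 (-0.97) and Folr2 (-0.94), and 3 of the 12 are complement genes. Their mean was 6.63 to 6.89 in 129S1/SvImJ and 6.58 to 7.98 in the other strains, with CBA/J at 6.77, level with 129S1/SvImJ. With the marker means of atrial cells, white adipocytes, macrophages and fibroblasts as covariates 7 interferon genes, 1 complement gene and 2 of the innate sensors were lower. Without dim genes, which took out some members, 3 innate sensors were lower. In bulk tissue fewer cells of a type and less RNA per cell cannot be told apart.

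**Figure D5:**
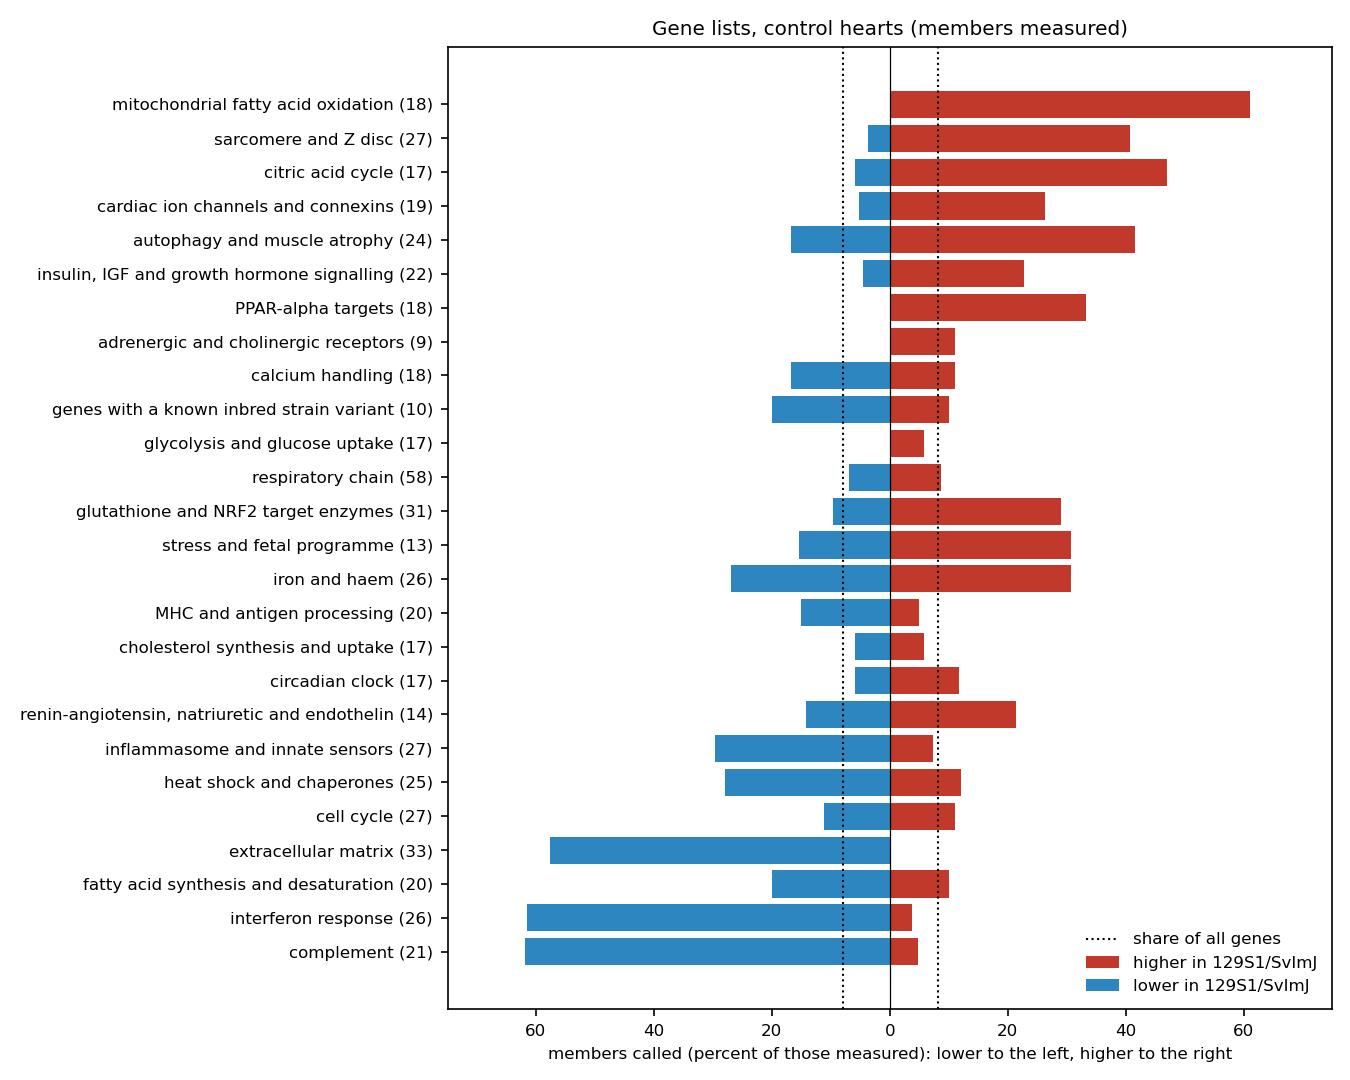
Share of the measured members of 26 gene lists (number measured in brackets) that were called higher (red, to the right) or lower (blue, to the left) in 129S1/SvImJ control hearts, in percent, with lists in order of the median difference. Dotted lines mark the shares over all genes (8.22% higher and 7.94% lower). Complement, interferon and extracellular matrix lists lie to the left and fatty acid oxidation, citric acid cycle and sarcomere lists to the right.

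Extracellular matrix genes, made in the heart mainly by fibroblasts, were lower. Of 33 measured 19 were lower and 0 higher (median -0.23), and 4 were apart from each strain, Col14a1 (-1.18), Bgn (-0.64), Col1a2 (-0.61) and Col1a1 (-0.39). Over all genes 7.94% were lower and 8.22% higher, and 0.742% were apart and lower. Col1a2, a chain of type I collagen, had 6.80, 7.13 and 7.40 against 7.24, 7.75 and 8.48 in the other strains, with 3 of their arrays inside its range. Timp2 (-0.75) and Col6a3 (-0.48) were lower as well. Some genes of collagen maturation and matrix outside this list were free of overlap, the collagen chaperone Serpinh1 (-0.72), the secreted glycoprotein Fstl1 (-0.72) and Islr (-0.79), chosen after their values were seen. In CR hearts 20 members were lower and 0 higher, beside 7.85% and 8.01% of all genes. Markers of fibroblasts were lower alongside, 8 of 12, of which 5 also stand in the matrix list, with Postn, a matrix protein of activated fibroblasts, lower by 1.58. Their mean was 7.86 to 8.16 in 129S1/SvImJ, below all 40 other hearts (8.18 to 9.15). For markers of epicardium and mesothelium 4 of 6 were lower. With the 4 marker means as covariates, 5 matrix genes were lower and 2 higher. That fit takes out the fibroblast mean, by which the groups are separated, so strain and marker level cannot be told apart there.

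Members of the fat oxidation, citric acid cycle and sarcomere lists were more often called higher than lower, by counts that moved with the covariates and with single arrays. Over all genes 8.22% were higher and 7.94% lower. Of 18 enzymes and carriers of mitochondrial fatty acid oxidation 11 were higher and 0 lower, with a median difference of 0.30 and a positive difference in 18 of 18. Cpt2, which turns acylcarnitine back to acyl-CoA in the matrix, was higher by 0.54, the thiolase Acaa2 by 0.36 (12.35, 12.45 and 12.53 against 11.37, 12.12 and 12.48) and the isomerases Eci1 and Eci2 by 0.38 each. PPAR-alpha targets had 6 of 18 higher and 0 lower, with the thioesterase Acot2 apart from each strain. In the citric acid cycle 8 of 17 were higher, led by Idh2 (0.68) and Mdh2 (0.41), and 1 was lower, Sdhd (-0.49), a membrane subunit of succinate dehydrogenase. Leaving out 129S1/SvImJ replicate 3 or 6 left 3 citric acid cycle genes higher, replicate 4, 5, 7 or 8 left 4 and replicate 2 left 5. It was also 5 without C3H/HeJ replicate 6 or with the replicate number as a block. Without BALB/cJ, or with each array centred on its median, 4 were higher. The methods' t-test left 3, and a fit of all 14 groups left 0. In the respiratory chain 5 of 58 genes were higher and 4 lower, near the shares over all genes, with a median of 0.03. In CR hearts 5 of the 18 oxidation genes were higher (median 0.08), and 0 PPAR-alpha targets were higher and 6 lower (median -0.10). There 8.01% of all genes were higher and 7.85% lower.

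Of 27 sarcomere and Z disc genes 11 were higher and 1 lower (median 0.28), beside 8.22% and 7.94% of all genes. Tpm1, the main tropomyosin of heart, had 12.65, 12.70 and 12.75 in 129S1/SvImJ and 11.91, 12.45 and 12.60 in the other strains, without overlap, although the difference was small (0.29 ± 0.0553). Myh7, the slow myosin, was higher by 0.88, the M-band protein Myom2 by 0.76, Actn2 by 0.46 and desmin (Des) by 0.40, while Tpm2 was lower by 0.79. Of 12 general cardiomyocyte markers, 7 of them also in this list, 4 were higher and 0 lower. Their mean was lowest in C57BL/6J (11.77), in which atrial and adipocyte markers were highest, and close to that of 129S1/SvImJ in C3H/HeJ (12.26). Leaving out 129S1/SvImJ replicate 1, 7 or 8 left 6 sarcomere genes higher and replicate 2, 4 or 6 left 7. Without C57BL/6J 4 sarcomere genes were higher, and with the atrial marker mean as a covariate 1 sarcomere, 5 fat oxidation and 2 citric acid cycle genes were, while 3 citric acid cycle genes were lower. With the 4 marker means 0 members of these 3 lists were higher in limma (3 of fat oxidation, 3 of the sarcomere and 1 of the citric acid cycle at an unadjusted p under 0.05, against 2, 2 and 3 lower). Of the PPAR-alpha targets 0 were higher there (2 higher and 3 lower at an unadjusted p under 0.05), and Cpt2 (-0.04) and Actn2 (-0.06) changed sign. In CR hearts 3 of the 27 sarcomere genes were higher and 0 lower (median 0.14).

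Antioxidant and iron genes differed in both directions. Of 31 glutathione and NRF2 target enzymes 9 were higher and 3 lower, beside 8.22% and 7.94% of all genes. Gclm, which encodes the modifier subunit of glutamate-cysteine ligase, was higher by 0.60 and apart from each strain, although 6 arrays of other strains lay inside its range (8.78 to 9.36). In CR hearts its difference was -0.03. Gsr (0.45), the glutathione reductase, and Aox1 (0.66), an aldehyde oxidase, were higher, and Gpx1 (-0.61), a glutathione peroxidase, was lower. Among 26 iron and haem genes 8 were higher and 7 lower. Cp, the ferroxidase ceruloplasmin, was higher by 0.74 ± 0.0775 (9.68, 9.91 and 10.17 against 8.55, 9.12 and 10.07), Blvrb by 0.73 and the iron exporter Slc40a1 by 0.51. With 4 marker means 2 iron and haem genes were higher and 3 lower, and 5 glutathione and NRF2 genes were higher and 1 lower. The transferrin receptor Tfrc was lower by 0.94 in control hearts and 0.47 above the mean of the others in CR hearts (adjusted p of the change = 0.0550). Hamp, the iron hormone hepcidin, was lower by 2.35, but 16 arrays of the other strains lay within or below its range. Erythroid markers were lower alongside in 129S1/SvImJ (Alas2 -1.64 and Slc4a1 -0.72), with a mean of 5.49 to 6.04 against 5.59 to 8.46.

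Of the remaining lists most held few called members. Among 24 autophagy and muscle atrophy genes 10 were higher, including the receptor Sqstm1 (0.57) and Bnip3 (0.56), and 4 were lower. In CR hearts 3 were higher and 4 lower. In control hearts 4 were higher with the atrial marker mean as a covariate. There 2 were higher and 2 lower with 4 marker means, and 6 were higher without 129S1/SvImJ replicate 1. Among those called lower Bnip3l (-0.59), which marks mitochondria for removal, had all 8 arrays (10.62 to 10.78) just below the other 40 (10.79 to 12.21). Among 25 heat shock genes 7 were lower, Hspa1a by 0.94, Dnaja1 by 0.65 and Hspe1 by 0.52, and 3 higher, with Hspb6, the small heat shock protein of cardiac muscle, higher by 0.68. The 7 became 4 without 129S1/SvImJ replicate 2, 11 without CBA/J replicate 1 and 1 with 4 marker means, and the 3 became 1 without 129S1/SvImJ replicate 8. Insulin, IGF and growth hormone genes had 5 higher and 1 lower of 22, and fatty acid synthesis genes 2 and 4 of 20. Cell cycle genes had 3 and 3 of 27, clock genes 2 and 1 of 17, and cholesterol genes 1 and 1 of 17. For MHC genes it was 1 and 3 of 20, and for stress and fetal programme genes 4 and 2 of 13. Glycolysis genes had 1 and 0 of 17, and adrenergic and cholinergic receptors 1 and 0 of 9. Over all genes 8.22% were higher and 7.94% lower. Some of these counts moved with the settings. With the atrial marker mean as a covariate 1 fatty acid synthesis gene was higher and 0 lower. Without the 4 control arrays that stood apart 9 cell cycle genes were lower. Of the 5 heart genes named in the study for their response to CR, Tfrc and Tuba4a (-0.64) were lower in 129S1/SvImJ controls, and Scd4 (-0.11), Tuba8 (0.05) and Chrna2 (-0.04) were not called.

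Position in the genome and the choice of probes were checked last. Of 19855 genes placed in the genome, 766 were called with a difference of at least 0.5 on the log2 scale. Of these, 82 had a neighbouring gene of the same kind and sign, and they formed 35 pairs and 4 runs of 3 genes. How many would have one by position alone was not tested. The runs were the Olfr39 and the Olfr1032 clusters, the C1q genes and Casp4 with Casp12 and Pdgfd. Beside Gdpd3, Ypel3 was higher by 0.39, and Sdc2 lay beside Cpq, itself lower without overlap (-0.68). Hpse, next to Coq2, differed in the opposite direction (-0.91). Of 177 called genes with more than 1 distinct probe set the next brightest probe set had the same sign in 157 and was called with the same sign in 99 and with the other sign in 2. Of the 282 genes apart from each strain 6 could be checked in this way, and the sign was the same in 6 and called in 4.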

How the data were processed

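Gene expression was measured in mouse hearts with Affymetrix Mouse Gene ST arrays, 1 mouse per array. The authors deposited log2 signals per probe set (Affymetrix Expression Console, RMA, versions not given), so differences are relative to arrays normalized together and those of dim genes are compressed. With arrays there is no depth of reads, and precision is set by how many arrays a group holds. The sources used here give no scan dates or array batches, so a batch and a strain cannot be told apart. Of 35556 probe sets 21789 had 1 gene symbol. The brightest on average stood for a gene, which left 19938 genes with no filter on signal, and neighbours were read from the gene table of assembly GRCm38.p6.

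A model with 1 mean per strain was fitted to the 48 control arrays in limma 3.58.1 (R 4.3.3), with 1 shared spread, and the mean of 129S1/SvImJ was compared with the mean of the 5 other strain means and with each strain (2-sided, Benjamini-Hochberg adjusted over all genes, threshold 0.05). All adjusted p-values are from these fits. CR hearts (47 arrays) and the difference between diets (95 arrays) were fitted likewise. The fit was tested on simulated data. Named genes were the 14 largest rises and 14 largest falls apart from each strain and free of overlap, up to 4 called members of each of 26 gene lists by p, the list of known variants, the 6 smallest p between diets and 5 heart genes of the study text. Others, and members beyond the first 4, were named after their values were seen. Members and lists, 19 of them of cell type markers, were chosen with earlier results of these data known. Plots were drawn with matplotlib.

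Alternatives covered normalization, probe sets, dim genes, weights, variance model, covariates, strains and arrays left out, the replicate block and the methods' t-test. Replicate numbers were taken from the labels. Arrays of the same number did not deviate together (median correlation 0.00297, other numbers 0.0109), so they were not used as pairs.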

Additional observations from a re-analysis of the deposited data

Results flagged for a closer look

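In 53 groups of values (the genes free of overlap that are named, the marker means of 129S1/SvImJ and the array correlations of each control group) 8 samples lay far from the rest of their group by Dixon's test, which chance gives in about 1 group in 20. Among 129S1/SvImJ controls, replicate 4 had an Agtr1a signal of 9.54 (next 9.44) and replicate 7 a Ptgis signal of 6.28 (next 6.60). The smooth muscle and pericyte marker mean of replicate 1 was 8.23 (next 8.02), and the brown adipocyte marker mean of replicate 5 was 5.19 (next 4.96). The correlation with the rest of the group was 0.974 for BALB/cJ replicate 7, 0.985 for C3H/HeJ replicate 6, 0.894 for CBA/J replicate 1 and 0.963 for DBA/2J replicate 5.

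The strain difference differed between diets, by a test of the difference itself, for 39 genes. The 6 with the smallest p were Kcne1 (1.27), Wfdc1 (0.765), Pdk4 (-1.51), Acot1 (-1.30), Angptl4 (-1.58) and Ucp3 (-1.44), as CR difference minus control difference on the log2 scale. What made them differ was not tested.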

How the results depend on the processing

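Counts of genes are given first against the mean of 5 strains (3221) and then apart from each strain (282). Array weights gave 5970 and 635, and the fit of all 14 groups gave 180 apart. The count apart was 468 without C57BL/6J and 509 without CBA/J. With 4 marker means as covariates, a setting chosen after seeing the data, the counts were 1096 and 96, and 331 of the 3221 genes had the other sign. The methods' t-test with 8 against 40 arrays called 1801 genes after Benjamini-Hochberg and 2365 at its own threshold. Leaving out each 129S1/SvImJ replicate in turn gave 2522 to 2887 and 230 to 264 genes, and leaving out CBA/J control replicate 1 gave 4053 and 363. In CR hearts 1103 genes were called with DBA/2J CR replicate 7, and the difference between diets was called for 13 genes with it and for 70 with the atrial marker mean as a covariate. The cause of these changes was not tested. The other settings left these counts within 1.5 times. The replicate block gave 3104 and 276, and 3090 genes in CR hearts and 45 between diets. The percentage of higher genes ran from 47.3 to 56.9.

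The 28 genes named as free of overlap kept their sign and call against the mean of 5 strains in all 892 refits in which they were tested, but 26 of them were apart from each strain with the atrial marker mean, 17 with 4 marker means, and 27 in the fit of all 14 groups and without C3H/HeJ replicate 6. Of all 173 named genes in 32 settings, 5236 of 5520 refits were the same, 261 lost and 16 gained the call, and 7 turned, with the mean of the probe sets Slc8a1 (-0.07301) and Cdkn1b (-0.02055), and with 4 marker means Fdft1 (-0.03221), Igfbp6 (0.03296), Ndufc2 (0.0265), Cpt2 (-0.03618) and Actn2 (-0.05597). Dim signals near 3 limit what can be said of genes such as Naip5.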
